A study of Homo sapiens with 18 samples.

Results

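MYC-linked nucleolar and growth genes were examined as 50 members of a fixed list, which holds MYC itself and genes for nucleolar structure, ribosome assembly, translation, nucleotide and polyamine synthesis, protein folding and growth. All 50 symbols had a row in the deposited table of 57773 genes, and 28 of them reached at least 10 counts in at least 3 of the 18 libraries and were tested. The libraries were made from RWPE1, an established line of benign human prostate epithelial cells. The cells stably carried 1 of 3 MACCs (modifiers of ARE-containing chromatin), lentiviral fusions of the DNA-binding domain of the androgen receptor, the tamoxifen-responsive ERT2 domain and a 3xFLAG tag. The neutral MACC has no effector, the repressive MACC adds KRAB and the activating MACC adds VP64. Each line was given ethanol vehicle or tamoxifen for 48 hours, which makes 6 groups of 3 biological replicates. The labels state 1.5 uM tamoxifen in the treatment field and 1.25 uM in the protocol field, and the difference was not resolved. All groups shared the RWPE1 background, an integrated MACC construct and blasticidin selection. Each MACC was in 1 line only, so construct and line cannot be told apart in comparisons between lines. The lines were selected populations of cells with an exogenous fusion protein, a group of cells without any construct was not analysed here, and MACC protein levels were not measured in these files.

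MYC is a transcription factor that binds E-box sequences together with its partner MAX and is known for driving cell growth. Many of its targets act in the nucleolus, where ribosomal RNA is transcribed, cut, modified and assembled into ribosomal subunits. Others supply nucleotides, polyamines, translation factors and chaperones that growing epithelial cells need.

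Total counts per library lay between 675609 and 792282, so that 0 counts of a gene allow a level of up to 3.79 to 4.44 CPM, the counts scaled to the library total (a floor of 3 counts, for counting error only). The basal keratin KRT5 had 680 to 1135 counts per library and KRT14 had 435 to 857. The secretory luminal markers KLK3 and KLK2 were at 0 in all 18 libraries. Of the markers of other cell types, the 6 fibroblast genes summed to 0 to 13 counts per library, PTPRC, CD3E, CDH5 and VWF were at 0, and the 5 leukocyte genes summed to 11 to 29, nearly all from CD68. The CD68 row lies opposite AC113189.5, and that of COL1A1, the only fibroblast gene with counts, lies opposite RP11-893F2.5. The summed basal markers were 1266 to 1640 counts with vehicle and 1816 to 2036 with tamoxifen in the neutral line, 1401 to 1871 and 1747 to 2429 in the repressive line, and 1500 to 1904 and 1850 to 2148 in the activating line. The summed luminal markers, nearly all KRT8, whose exons face those of KRT18, were 721 to 727 and 593 to 664 in the neutral line, 849 to 1037 and 778 to 853 in the repressive line, and 759 to 778 and 537 to 668 in the activating line. The part of these markers in the member values was not tested.

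Counts of the members were low. The 50 members together held 37822 counts, or 0.281% of all counts, and 32 of them had a mean below 10 counts per library, 11 a mean from 10 to 50 and 7 a mean of at least 50. The rows of NOP16, TCP1 and CDK4 held 69.8% of the member counts. Per kilobase of exon, the mean was 256 counts for NOP16, 112 for TCP1, 65.0 for CDK4, 22.6 for BOP1 and 13.7 for EIF2S1, and it was below 10 for each of the other 45 members. Of the tested members, 11 reached 10 counts in all 18 libraries and 0 reached 10 counts in 1 group only.

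In 22 members, exonic bases were shared with a gene that GRCh37 annotation places on the other strand. These included NOP16, TCP1 and CDK4. The other 28 members had no such overlap, and 15 of those were tested. The table also held rows for the genes opposite 21 of the members, and in 10 of these cases the opposite row had the higher mean. Over all tested genes matched to the annotation, 67.9% had an opposite overlap. The library kit keeps strand information, but the strand setting used in counting is not given in the sources used here. For this reason a change in a member row with an opposite overlap cannot be told apart from a change in the gene opposite. Rows without an overlap depend on the same setting, and whether they hold all reads of their genes was not tested. Fewer cells of a type and less RNA per cell cannot be told apart in these bulk libraries either.

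**Figure D1:**
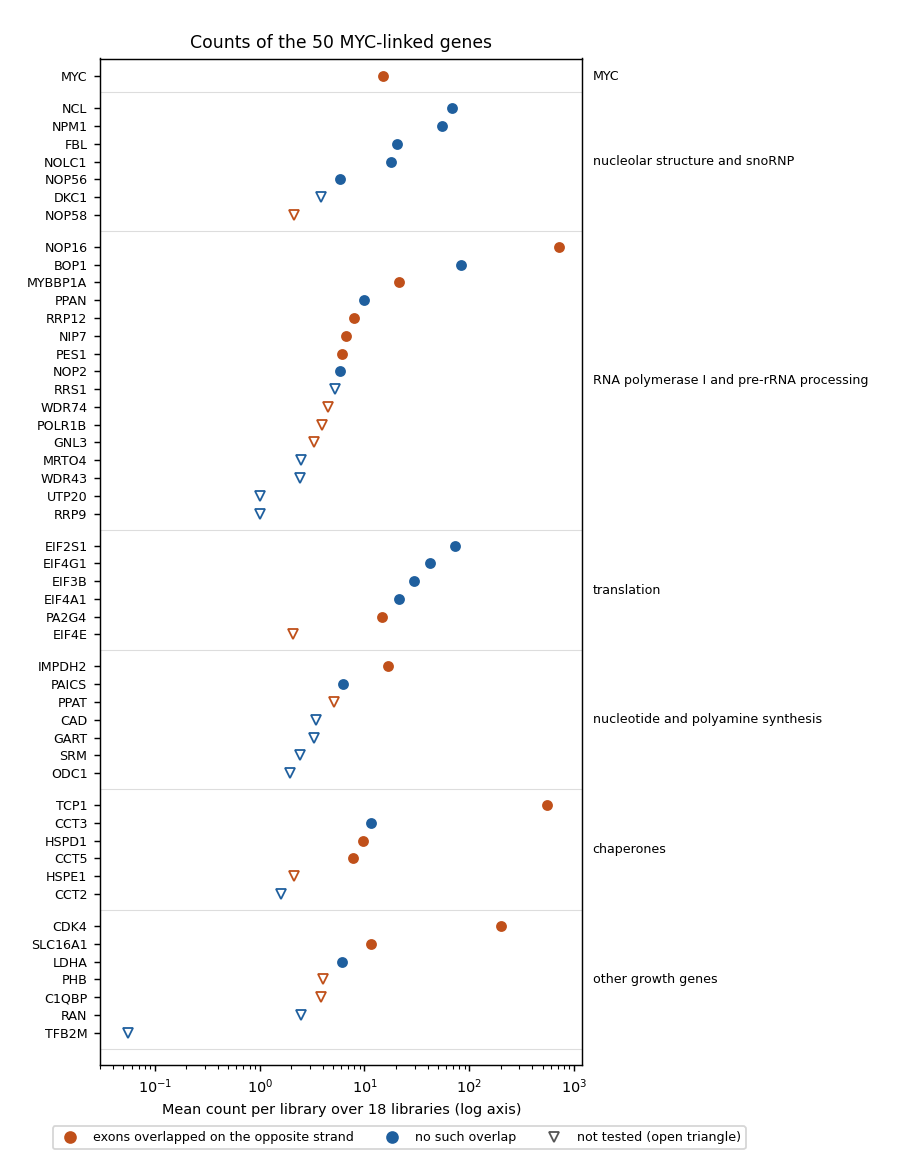
Mean count per library over 18 libraries (horizontal log axis) for each of the 50 members, arranged by role. Filled circles are the 28 tested members, open triangles the 22 untested ones, orange marks an exon overlap on the opposite strand and blue none, and the 3 rightmost points (NOP16, TCP1 and CDK4) are all orange.

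The sequence to which MYC and MAX bind was looked up in RefSeq promoter windows (GRCh38.p14, 250 bases before to 50 after a start) as CACGTG, the canonical E-box, which reads the same on both strands. Windows were matched by symbol for 41 of the 50 members, 22 of them tested, and some genes had several. No window was matched for MYC, NOP58, NOLC1, RRP12, RRS1, BOP1, IMPDH2, SLC16A1 or PHB, so these were not searched. CACGTG was found in 20 of 56 member windows (35.7%) and in 7.26% of all 35116 windows. The members with a match were 20, of which 9 were tested. The list was chosen as MYC-linked, and no test was made of these shares. Overlapping windows of HSPD1 and HSPE1, and of PPAT and PAICS, hold the same match, which is counted for both genes. The palindromic androgen response element was looked up on both strands as an exact match of 15 letters, with any bases in its spacer. It was in 0 of the 56 member windows and in 1 of all 35116 windows (0.00285%). Because exact matches were so rare, the 0 cannot tell whether member promoters hold androgen response elements. Elements with other letters or outside the windows were not searched. Upstream of the start, 4 tested members had the whole E-box, and these are shown since they carry the letters that MYC is known to bind. The 250 bases before the start are printed 5′ to 3′ on the gene's strand, with E-boxes in capitals. They are at chr12:57752311-57752560 (minus strand) for CDK4, chr11:18394313-18394562 (plus strand) for LDHA, chr3:184314356-184314605 (plus strand) for EIF4G1 and chr2:197500275-197500524 (minus strand) for HSPD1.
CDK4: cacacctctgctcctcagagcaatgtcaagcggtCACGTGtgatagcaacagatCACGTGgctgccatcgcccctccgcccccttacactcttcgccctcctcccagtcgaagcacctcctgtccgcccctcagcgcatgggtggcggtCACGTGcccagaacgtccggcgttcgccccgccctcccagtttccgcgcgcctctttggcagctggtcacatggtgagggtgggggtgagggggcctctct
LDHA: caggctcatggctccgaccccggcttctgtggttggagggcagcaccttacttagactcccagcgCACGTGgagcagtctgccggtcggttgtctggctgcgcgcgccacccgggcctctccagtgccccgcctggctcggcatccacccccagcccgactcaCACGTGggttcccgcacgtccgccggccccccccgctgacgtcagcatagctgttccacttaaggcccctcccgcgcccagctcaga
EIF4G1: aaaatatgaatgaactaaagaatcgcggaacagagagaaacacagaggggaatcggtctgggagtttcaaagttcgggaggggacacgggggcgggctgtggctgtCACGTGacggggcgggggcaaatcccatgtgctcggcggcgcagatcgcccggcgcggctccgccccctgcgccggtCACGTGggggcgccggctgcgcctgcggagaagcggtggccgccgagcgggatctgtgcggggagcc
HSPD1: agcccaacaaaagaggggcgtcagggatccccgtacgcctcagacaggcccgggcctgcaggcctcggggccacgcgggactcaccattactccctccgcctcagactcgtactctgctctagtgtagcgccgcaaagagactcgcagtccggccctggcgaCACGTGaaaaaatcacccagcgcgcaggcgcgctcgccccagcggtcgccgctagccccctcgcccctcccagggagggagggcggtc
CDK4 had 3 such matches, starting 216, 196 and 101 bases before the start. LDHA had matches 185 and 87 bases before it, EIF4G1 144 and 67 bases before it, and HSPD1 1 match 88 bases before it. No window of the tested members NCL, NPM1, NOP56, NOP16, PPAN, NIP7, PA2G4, EIF2S1, EIF3B, EIF4A1, CCT3, CCT5 or TCP1 held these letters. This says nothing of sites outside the window. A match is a description of sequence, and binding was not measured in these libraries.

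Whether tamoxifen changed the members was asked in each line, and few members passed the test. A gene is called where its adjusted p from DESeq2 (Wald test, Benjamini-Hochberg over 5816 genes) was under 0.05, and fold changes are log2 values of tamoxifen over vehicle with their standard error (SE). In the neutral line 0 of 28 members were called by DESeq2, where 0.774% of all tested genes were called. An unadjusted p under 0.05 was found there for 1 member (3.57%) and for 7.75% of all genes. The repressive line had 3 members called, TCP1 higher and NOLC1 and PPAN lower, against 9.65% of all genes, and without replicate 2 of its tamoxifen group only TCP1 was called. The activating line had 2 members called, TCP1 and NOP16, both higher, against 2.80% of all genes. As shares of 28 members these are 0, 10.7 and 7.14%, and with so few members the share in the repressive line was near that of all genes. The edgeR quasi-likelihood test called 0, 2 and 1 members.

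The members' median log2 fold change was 0.09 in the neutral line, -0.54 in the repressive line and 0.15 in the activating line, beside medians over all tested genes of 0.00, -0.02 and 0.00. In the repressive line 18 of 28 members had a value below 0, where 51.6% of all tested genes did. Among the 15 tested members without an opposite overlap, 10 were below 0 with a median of -0.53, while the median of all 1807 tested genes without overlap was -0.07. The median SE of those 15 members was 0.50. It describes the error in the value of a single gene and not that of their median, which was not tested. With total counts as size factors, the median of all genes moved by -0.13 in the repressive line, to -0.16, and the median of the members to -0.67.

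**Figure D2:**
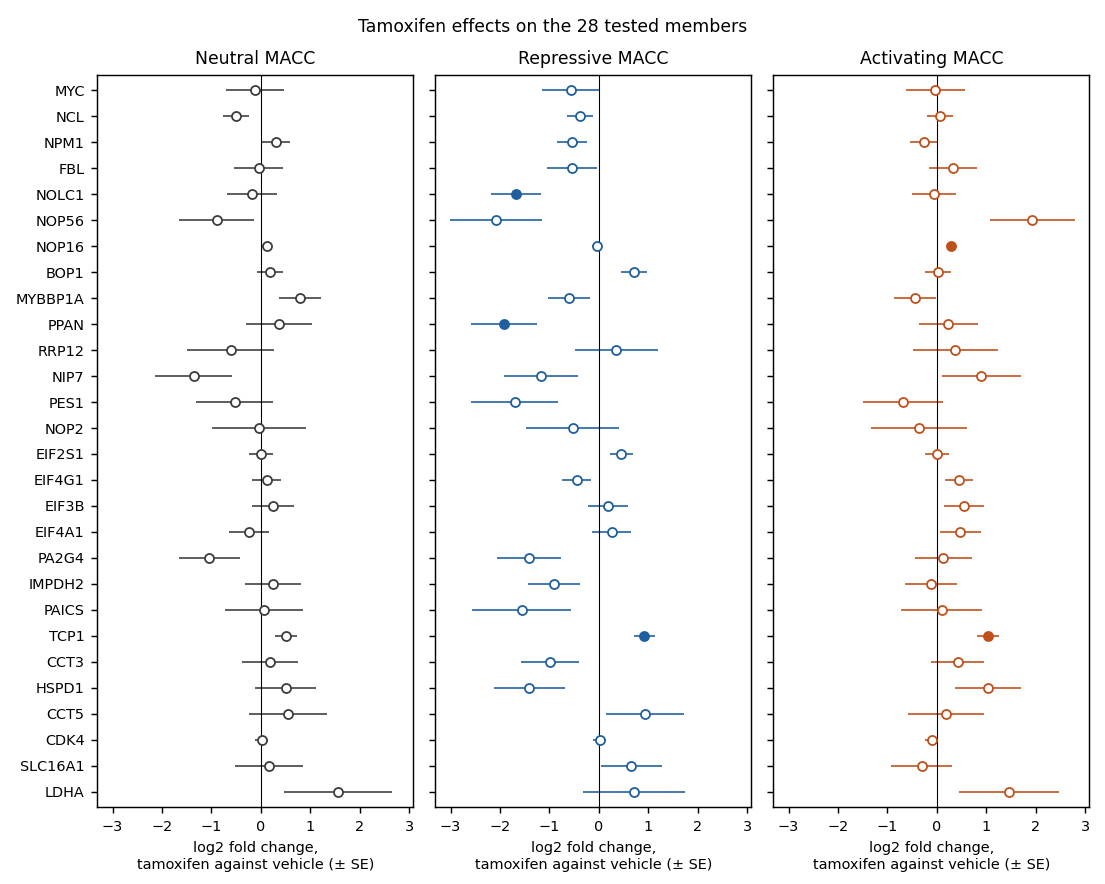
Log2 fold change of tamoxifen over vehicle with its SE (horizontal axis) for the 28 tested members in the neutral, repressive and activating MACC lines. Filled points passed an adjusted p of 0.05: NOLC1, PPAN and TCP1 in the repressive line, and NOP16 and TCP1 in the activating line.

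No member was called for a difference of tamoxifen effects between lines. The repressive minus neutral difference called 0 members by DESeq2, where 3.85% of all genes were called. At an unadjusted p under 0.05 were 5 members (17.9%) and 13.9% of all genes. The activating minus neutral difference called 0 members and 0.619% of all genes. There 3 members (10.7%) and 7.41% of all genes had an unadjusted p under 0.05. The activating minus repressive difference called 0 members and 4.25% of all genes, with 6 members (21.4%) and 13.4% of all genes at an unadjusted p under 0.05. Its largest value was that of NOP56, an snoRNP core protein (4.02, SE 1.27), which received no adjusted p because of its low counts. The edgeR test also called 0 members in each. These differences share libraries with the effects above and with each other.

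The vehicle-treated lines were compared to ask whether the members differed before induction, and DESeq2 and edgeR called 0 members in all 3 comparisons. The percentages of all genes called by DESeq2 were 2.51% between the repressive and neutral lines, 0.808% between the activating and neutral lines and 1.72% between the activating and repressive lines. The numbers of members with an unadjusted p under 0.05 were 4, 1 and 3, or 14.29%, 3.571% and 10.71% of the 28. Of all tested genes, 10.44%, 7.101% and 10.09% had an unadjusted p under 0.05 in the same comparisons. The 4 between the repressive and neutral lines were PPAN (1.59), IMPDH2 (1.37), NOLC1 (0.98) and MYBBP1A (0.88), all with higher values in the repressive line with vehicle. Those vehicle libraries are also the reference for the tamoxifen effect in that line.

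MYC had between 5 and 27 counts per library, and no call in any comparison. Its normalized counts in the neutral line were 5.20, 18.2 and 21.7 with vehicle and 4.82, 17.5 and 19.3 with tamoxifen. Those of the repressive line were 25.6, 6.29 and 23.9 with vehicle and 18.4, 12.8 and 6.29 with tamoxifen. Those of the activating line were 15.6, 10.6 and 13.6 with vehicle and 11.15, 14.9 and 12.9 with tamoxifen. The groups overlapped in every line, and single libraries of the neutral and repressive lines fell to a level near 5 or 6. The log2 fold changes were -0.12 (SE 0.59), -0.57 (SE 0.59) and -0.03 (SE 0.59), and the 95% interval in the repressive line ran from -1.72 to 0.59. A fall of MYC by 1 on the log2 scale lies within that interval and was not detectable with these counts. The gene opposite MYC, CASC11, shares 194 exonic bases with it and its row was at 0 in all libraries.

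The nucleolar structure and snoRNP group had 7 members, of which 5 were tested and 1 was called, NOLC1 (chr10:103911933-103923628, plus strand), a phosphoprotein that shuttles between nucleolus and Cajal bodies. Its normalized counts in the repressive line were 25.6, 26.05 and 25.7 with vehicle and 8.74, 5.80 and 9.43 with tamoxifen. All 3 tamoxifen libraries lay below all 3 vehicle libraries, and NOLC1 has no opposite overlap. It fell by 1.68 on the log2 scale (SE 0.51, adjusted p = 0.0108 by DESeq2). Without replicate 2 of the repressive tamoxifen group the adjusted p was 0.0568. NOLC1 was at 22.9, 7.65 and 8.87 with vehicle and 13.5, 11.7 and 9.16 with tamoxifen in the neutral line, and at 18.4, 18.3 and 32.6 with vehicle and 30.4, 17.7 and 18.4 with tamoxifen in the activating line. Both of those pairs of groups overlapped, with log2 fold changes of -0.19 (SE 0.50) and -0.07 (SE 0.45). The repressive minus neutral difference for NOLC1 was -1.50 (SE 0.71, adjusted p = 0.211) and the activating minus repressive difference 1.62 (SE 0.67, adjusted p = 0.151), so a difference in its response between lines did not pass the test.

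NCL (chr2:232318242-232348352, minus strand), nucleolin, was the most counted member of this group with a mean of 69.0 per library. Its normalized counts in the neutral line were 74.9, 79.4 and 66.0 with vehicle and 59.7, 43.8 and 51.9 with tamoxifen, without overlap. The repressive values were 78.8, 70.1 and 73.5 with vehicle and 76.7, 56.9 and 36.7 with tamoxifen. The activating values were 76.4, 50.2 and 84.2 with vehicle and 79.05, 90.25 and 50.7 with tamoxifen. The last 2 pairs of groups overlapped, and 1 repressive tamoxifen library was the lowest of all 18. None passed, with log2 fold changes of -0.50 (SE 0.27, adjusted p = 0.374), -0.38 (SE 0.27, adjusted p = 0.454) and 0.06 (SE 0.26, adjusted p = 0.940).

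The other tested members of the group were NPM1, a nucleolar chaperone, FBL, the methyltransferase of box C/D snoRNPs, and NOP56, a core protein of the same particles. NPM1 had normalized counts of 45.9 to 53.9 with vehicle and 24.3 to 43.0 with tamoxifen in the repressive line, and its groups overlapped in the other lines. Its log2 fold change in the repressive line was -0.55 (SE 0.30, adjusted p = 0.282). NOP56 had means of 7.40 with vehicle and 1.71 with tamoxifen in the repressive line and of 2.16 and 8.27 in the activating line, with log2 fold changes of -2.09 (SE 0.93) and 1.93 (SE 0.86) and no adjusted p in either. FBL was at -0.04 (SE 0.49), -0.54 (SE 0.50) and 0.33 (SE 0.49) in the neutral, repressive and activating lines. NOP58 and DKC1, the scaffold of C/D particles and the pseudouridine synthase of H/ACA particles, were not tested.

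The group of RNA polymerase I and pre-rRNA processing genes was the largest, with 16 members, 8 of them tested and 2 called. PPAN (chr19:10217038-10222688, plus strand), a factor of large-subunit assembly, was lower with tamoxifen in the repressive line. Its normalized counts there were 24.7, 14.4 and 11.9 with vehicle and 7.76, 2.32 and 3.14 with tamoxifen, without overlap. It fell by 1.92 on the log2 scale (SE 0.66, adjusted p = 0.0348 by DESeq2). PPAN in the neutral line was at 5.20, 5.74 and 5.91 with vehicle and 2.89, 8.77 and 10.2 with tamoxifen, and in the activating line at 6.44, 11.6 and 12.7 with vehicle and 9.12, 16.75 and 10.1 with tamoxifen. Vehicle and tamoxifen libraries overlapped in both of these lines, and the highest of the 18 values was a repressive vehicle library. The call did not hold with edgeR (adjusted p = 0.0563), without replicate 1 of the repressive vehicle group (0.203) or without its replicate 2 (0.0603). PPAN also shares 1422 exonic bases with a gene on its own strand, so its counts are uncertain.

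NOP16 (chr5:175810949-175815928, minus strand), another large-subunit assembly factor, had the highest counts of any member. Normalized NOP16 counts in the activating line were 649.5, 612 and 645 with vehicle and 741, 789.9 and 779 with tamoxifen. The neutral values were 669, 717 and 742 with vehicle and 733, 815 and 769 with tamoxifen, and in the repressive line 623, 563 and 785.5 with vehicle and 638, 671 and 609.9 with tamoxifen. Only in the activating line did the groups not overlap. NOP16 rose there by 0.28 on the log2 scale (SE 0.10, adjusted p = 0.0475), and the neutral and repressive values were 0.12 (SE 0.10, adjusted p = 0.625) and -0.04 (SE 0.10, adjusted p = 0.881). The difference between the activating and repressive effects was 0.32 (SE 0.14, adjusted p = 0.186). The call was at the threshold, and 15 of the 18 fits that each left out 1 library lost it, with adjusted p of up to 0.241. Exons of 2 genes overlapped 521 bases of NOP16 on the opposite strand, 156 of them coding, and the larger overlap was with ARL10, whose own row had a mean of 23.0 counts.

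Of the remaining tested members of this group, BOP1, a partner of PES1 in large-subunit assembly, came nearest to a call. BOP1 had normalized counts of 61.7, 58.4 and 77.2 with vehicle and 111.6, 133.5 and 79.6 with tamoxifen in the repressive line, and the groups did not overlap. Its log2 fold change there was 0.72 (SE 0.26, adjusted p = 0.0532), opposite in sign to PPAN and NOLC1. Its neutral and activating values were 0.18 (SE 0.27) and 0.03 (SE 0.26). MYBBP1A, a MYB-binding nucleolar protein opposite SPNS2, was at 0.80 (SE 0.43) in the neutral line, -0.60 (SE 0.42) in the repressive line and -0.44 (SE 0.43) in the activating line, with no call. PES1 (opposite TCN2), NIP7 (opposite COG8), RRP12 (opposite RP11-452K12.7) and NOP2 had means below 10 counts and no call. PES1 had normalized counts of 7.35 to 8.545 with vehicle and 2.10 to 2.91 with tamoxifen in the repressive line, without overlap. NIP7 had 8.33 to 10.5 and 2.89 to 4.87 in the neutral line, also without overlap. Both overlapped in their other lines, and RRP12 and NOP2 overlapped in every line. NOP2 also shares 2550 exonic bases with genes of its own strand. POLR1B, the second largest subunit of RNA polymerase I, was not tested, and neither were UTP20, WDR43, RRP9, RRS1, GNL3, WDR74 and MRTO4.

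The translation group had 6 members, 5 tested and 0 called by DESeq2 in any comparison, and edgeR also called 0 in the tamoxifen comparisons. EIF2S1 (chr14:67827045-67853233, plus strand), the alpha subunit of eIF2, had the most counts and no opposite overlap. Normalized EIF2S1 counts in the repressive line were 60.8, 61.1 and 79.9 with vehicle and 105.8, 81.25 and 88.0 with tamoxifen. The neutral values were 72.9, 90.9 and 64.0 with vehicle and 92.5, 77.0 and 59.0 with tamoxifen, and in the activating line 60.7, 49.2 and 60.65 with vehicle and 68.9, 56.8 and 46.1 with tamoxifen. The repressive groups did not overlap and the others did. The log2 fold changes were 0.45 (SE 0.23, adjusted p = 0.239) in the repressive line, 0.01 (SE 0.24) in the neutral line and 0.00 (SE 0.25) in the activating line. EIF4G1, the scaffold of the cap-binding complex whose promoter is shown above, had log2 fold changes of 0.11 (SE 0.29), -0.45 (SE 0.29) and 0.45 (SE 0.28) in the neutral, repressive and activating lines. EIF3B was at 0.24 (SE 0.43), 0.18 (SE 0.41) and 0.56 (SE 0.40), and EIF4A1, which shares 2466 exonic bases with other genes of its strand, at -0.24 (SE 0.40), 0.26 (SE 0.39) and 0.47 (SE 0.41). PA2G4, a growth-regulating RNA-binding protein also known as EBP1, was at -1.05 (SE 0.62), -1.41 (SE 0.64, adjusted p = 0.153) and 0.13 (SE 0.58). EIF4E, the cap-binding protein, was not tested, with at most 7 counts per library.

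Nucleotide and polyamine synthesis was the group with the fewest counts, with 2 of 7 members tested and 0 called by DESeq2 or edgeR. IMPDH2 (chr3:49061758-49066880, minus strand), the rate-limiting enzyme of guanine nucleotide synthesis, had normalized counts of 34.2, 21.6 and 23.9 with vehicle and 15.5, 16.25 and 10.5 with tamoxifen in the repressive line. Neutral libraries were at 7.29, 6.70 and 16.75 with vehicle and 10.6, 15.6 and 10.2 with tamoxifen. Activating libraries were at 32.2, 14.5 and 6.34 with vehicle and 21.3, 18.6 and 9.21 with tamoxifen. IMPDH2 shares 1680 exonic bases with genes of its strand and 132 with RP13-131K19.6 on the opposite strand, so its counts are uncertain. Only the repressive groups did not overlap, and the 3 activating vehicle libraries were far apart. The log2 fold changes were -0.91 (SE 0.52, adjusted p = 0.304), 0.24 (SE 0.57) and -0.11 (SE 0.53). PAICS, a purine synthesis enzyme, was at -1.56 (SE 0.99) in the repressive line on a mean of 6.22 counts, with no adjusted p. CAD, PPAT and GART of pyrimidine and purine synthesis, ODC1, which makes putrescine, and SRM, spermidine synthase, were not tested, with at most 13 counts in any library.

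The chaperone group had 6 members, 4 tested and 1 called, TCP1 (chr6:160199530-160210735, minus strand), a subunit of the cytosolic chaperonin. Normalized TCP1 counts in the neutral line were 381, 339.5 and 401 with vehicle and 532, 504 and 559 with tamoxifen. The repressive values were 543, 384 and 427 with vehicle and 801, 833 and 926 with tamoxifen. The activating values were 455, 264 and 272 with vehicle and 695, 517 and 815 with tamoxifen. In all 3 lines every tamoxifen library lay above every vehicle library. TCP1 rose by 0.92 on the log2 scale in the repressive line (SE 0.21, adjusted p = 3.5e-04) and by 1.03 in the activating line (SE 0.22, adjusted p = 7.5e-05). Its neutral value was 0.51 (SE 0.22, adjusted p = 0.193), which did not pass. The differences from the neutral line were 0.41 (SE 0.30, adjusted p = 0.503) for the repressive and 0.53 (SE 0.30, adjusted p = 0.480) for the activating line, and neither passed. Both calls held in every alternative fit that was run with TCP1 in it, 23 for each line. Leaving out replicate 1 of the activating vehicle group, which had the highest TCP1 value of that group, brought the neutral effect to an adjusted p of 0.0102 and the activating minus neutral difference to 0.83 (adjusted p = 0.0069).

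TCP1 overlaps ACAT2, an enzyme of acetoacetyl-CoA synthesis, tail to tail over 454 exonic bases, 65 of them coding for TCP1. As the strand setting is not given, the rise of the TCP1 row cannot be told apart from a rise of ACAT2. The values of the ACAT2 row do not settle this. The ACAT2 row had a mean of 87.4 counts and was not called, with log2 fold changes of 0.56 (SE 0.24, adjusted p = 0.141) in the activating line and no unadjusted p under 0.05 in the other lines. The ACAT2 value was 0.21 when replicate 3 of the activating tamoxifen libraries was left out. The other chaperonin subunits tested were not called. CCT3, without opposite overlap, was at 0.19 (SE 0.57), -0.99 (SE 0.59, adjusted p = 0.324) and 0.43 (SE 0.54), and CCT5 at 0.55 (SE 0.79), 0.93 (SE 0.79) and 0.18 (SE 0.76). HSPD1, the mitochondrial HSP60, was at 0.51 (SE 0.62), -1.41 (SE 0.72, adjusted p = 0.223) and 1.03 (SE 0.66). Its partner HSPE1, divergent from it, and CCT2 were not tested.

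The last group held 7 other growth genes, 3 tested and 0 called by DESeq2 or edgeR. The row of CDK4 (chr12:58141510-58149796, minus strand), the cyclin D-dependent kinase with 3 E-boxes in the promoter shown above, was nearly level. CDK4 shares 1369 exonic bases with TSPAN31 on the opposite strand, so a change in CDK4 cannot be told apart from a change in TSPAN31. Normalized CDK4 counts in the neutral line were 254, 198 and 183 with vehicle and 212, 214 and 214 with tamoxifen. The repressive values were 194, 195 and 188 with vehicle and 175, 203 and 205 with tamoxifen, and in the activating line 192, 185 and 186.5 with vehicle and 175, 165 and 183 with tamoxifen. The groups overlapped in the neutral and repressive lines, and in the activating line tamoxifen was slightly the lower. The log2 fold changes were 0.01 (SE 0.14), 0.01 (SE 0.14) and -0.11 (SE 0.14), and the 95% interval in the repressive line was -0.26 to 0.29. LDHA, lactate dehydrogenase A, was at 1.57 (SE 1.09), 0.71 (SE 1.03) and 1.47 (SE 1.01) on a mean of 6.11 counts, and SLC16A1, a lactate transporter opposite SLC16A1-AS1, at 0.16 (SE 0.68), 0.66 (SE 0.62) and -0.31 (SE 0.62). RAN, TFB2M, PHB and C1QBP were not tested.

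**Figure D3:**
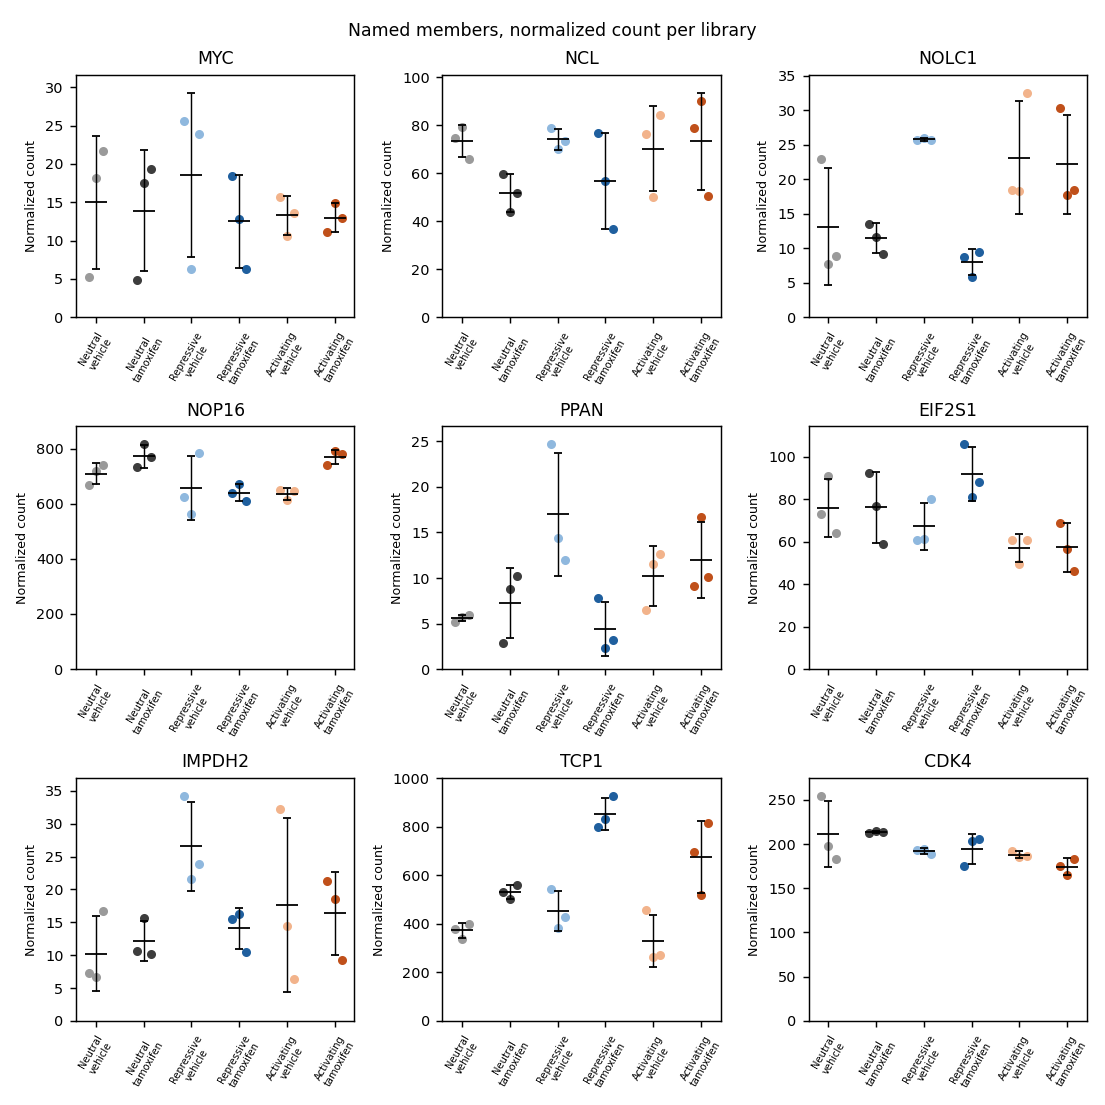
Normalized count (vertical axis, from 0) in each library for 9 members in the 6 groups, with points for the 3 replicates and black bars for mean ± SD. TCP1 is higher with tamoxifen in each line, NOLC1 and PPAN are lower with tamoxifen in the repressive line, and MYC and CDK4 overlap or nearly overlap.

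Rows opposite to members often held more counts than the members. Opposite CDK4, the TSPAN31 row had a mean of 1702 counts, against 201 for CDK4, with 1369 shared exonic bases. Opposite PHB, CCT5, PA2G4 and WDR74 lie lncRNA rows with means of 1110, 904, 428 and 144 counts, where the members themselves had 4, 7.78, 14.6 and 4.50. The 434 exonic bases of the row opposite PA2G4 (RP11-603J24.17, chr12:56498398-56507689, minus strand) and the 963 of the row opposite PHB (RP11-1079K10.4, chr17:47481443-47482559, plus strand) lay entirely within exons of the members. Of the 12 such rows that were tested, 0 were called in the neutral and activating lines, with 2 in each at an unadjusted p under 0.05 by DESeq2, and 3 were called in the repressive line, all lower, where 9.65% of all genes were called. The median log2 fold change of the 12 rows in the repressive line was -0.28.

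The row opposite PA2G4 had normalized counts in the repressive line of 433, 451 and 468 with vehicle and 296, 290.2 and 293 with tamoxifen. The neutral line had 493, 441 and 489 with vehicle and 395, 371 and 449 with tamoxifen, and in the activating line 491, 391 and 451 with vehicle and 416.5, 423 and 408 with tamoxifen. The repressive tamoxifen libraries were the 3 lowest of the 18, and the groups overlapped in the other lines. RP11-603J24.17 fell by 0.62 on the log2 scale in the repressive line (SE 0.11, adjusted p = 3.9e-07), beside -0.23 (SE 0.10, adjusted p = 0.233) in the neutral line. The activating minus repressive difference was 0.52 (SE 0.15, adjusted p = 0.0103), and the repressive minus neutral difference of -0.39 (SE 0.15, adjusted p = 0.0908) did not pass. PA2G4 itself, on 14.6 counts, had a value of the same sign in the repressive line without a call.

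The row opposite WDR74, a factor of large-subunit maturation, is RP11-727F15.9 (chr11:62599706-62601515, plus strand), with 517 shared bases. Its normalized counts in the repressive line were 178.5, 187 and 146 with vehicle and 107.7, 107.9 and 94.3 with tamoxifen. The groups did not overlap, and it fell by 0.72 on the log2 scale (SE 0.17, adjusted p = 4.5e-04). The TSPAN31 row had 1654, 1774 and 1756 with vehicle and 1320.0, 1512 and 1546 with tamoxifen in the repressive line. The TSPAN31 row fell by 0.24 on the log2 scale (SE 0.08, adjusted p = 0.0220), again without overlap, while the CDK4 row was level. Which of these genes each row reflects was not tested. That call was lost without replicate 1 of the repressive tamoxifen group (adjusted p = 0.203) or without replicate 2 (0.106) or 3 (0.0820) of the repressive vehicle group. The rows opposite PHB and CCT5 were not called in any comparison, although they held among the most counts of the 12.

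**Figure D4:**
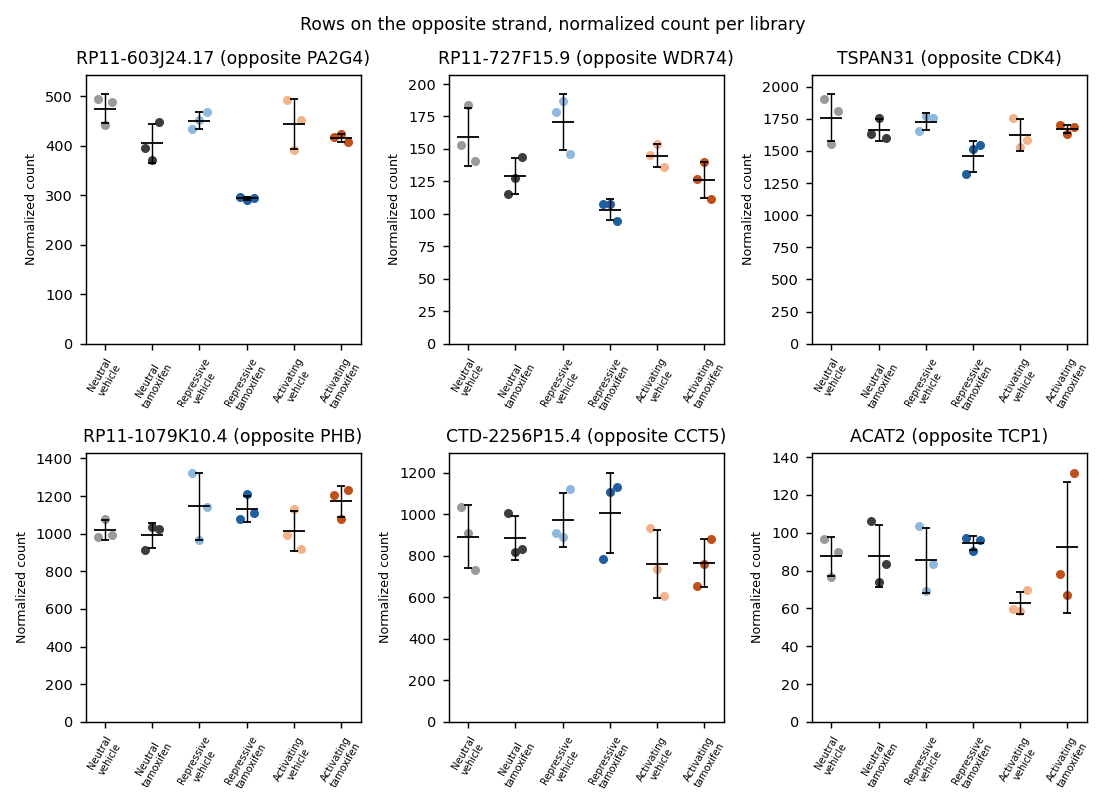
Normalized count (vertical axis, from 0) in each library of 6 rows that lie opposite PA2G4, WDR74, CDK4, PHB, CCT5 and TCP1, with points for the 3 replicates of a group and black bars for mean ± SD. The repressive tamoxifen libraries are the lowest for the rows opposite PA2G4 and WDR74 and lie below the repressive vehicle libraries for TSPAN31, and the rows opposite PHB and CCT5 overlap between treatments.

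Summed over all members, the level depended on which rows were included. The 28 members without an opposite overlap summed to 456 ± 43.7 normalized counts (SD, n = 3) with vehicle and 459 ± 56.7 with tamoxifen in the neutral line. The sums were 493 ± 30.1 and 456 ± 58.2 in the repressive line, and 466 ± 43.2 and 503.5 ± 36.1 in the activating line. These pairs of groups overlapped, and no test was made of the sums. All 50 members took 0.233 to 0.267% of counts with vehicle and 0.298 to 0.351% with tamoxifen in the activating line, 0.252 to 0.260% and 0.284 to 0.290% in the neutral line, and 0.245 to 0.298% and 0.280 to 0.300% in the repressive line. The share was higher with tamoxifen without overlap in the neutral and activating lines, and the rows of NOP16, TCP1 and CDK4 made up 63.4 to 78.0% of it in any library.

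**Figure D5:**
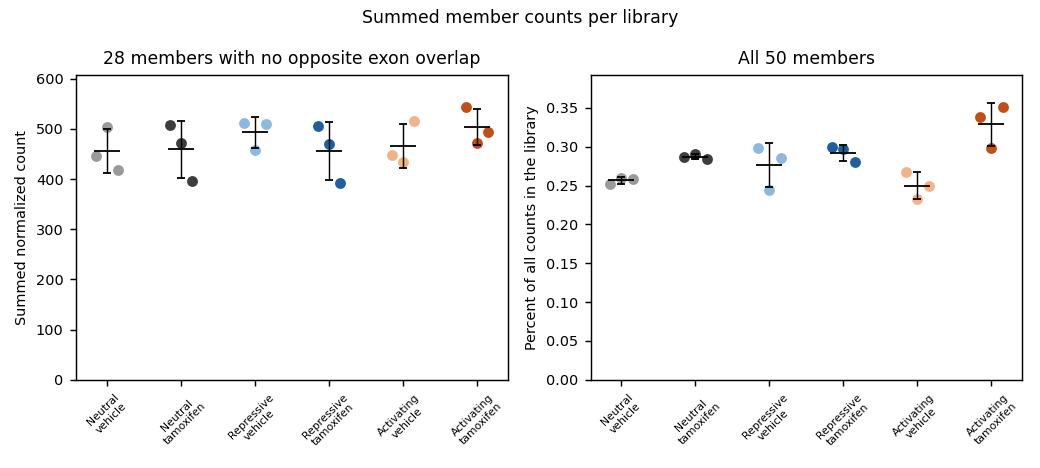
Summed normalized count of the 28 members without an opposite exon overlap (left) and percent of all counts taken by the 50 members (right), per library in the 6 groups, with mean ± SD as black bars and both axes from 0. The left sums overlap between treatments, and on the right the activating tamoxifen group has the highest mean.

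Other genes of the same pathways were taken from fixed lists of 100 genes, all in the table and 46 of them tested. In the neutral line 0 were called by DESeq2, where 0.774% of all tested genes were called. An unadjusted p under 0.05 was found there for 5 of the 46 and for 7.75% of all tested genes. The repressive line had 4 called higher and 2 lower, where 9.65% of all genes were called, with a median log2 fold change of -0.36 beside -0.02 over all genes. The activating line had 0 called higher and 1 lower, where 2.80% of all genes were called. Of 26 tested pre-rRNA processing genes, the 4 that rose in the repressive line were HEATR1, needed for transcription of rRNA (0.53, SE 0.10), EMG1, a pre-rRNA methyltransferase (0.41, SE 0.14), IMP3, a U3 snoRNP protein (0.39, SE 0.12), and NOC2L (1.16, SE 0.38), and 0 fell. NOC2L had values as large in the neutral line (1.16, SE 0.41) and the activating line (1.18, SE 0.37), where it received no adjusted p. EMG1 was at 0.40 in the activating line (SE 0.14, adjusted p = 0.0583) and at -0.03 in the neutral line (SE 0.15). No difference between lines was called for any of the 4. Their list had a median of 0.00 in the repressive line, and all 4 have an opposite overlap, with LGALS8, LPCAT3, SNX33 and SAMD11. Of 13 tested translation and chaperonin genes, 0 rose and 1 fell, the mitochondrial chaperone HSPA9 (-1.99, SE 0.64), which has no opposite overlap. It had 12.3 to 19.8 normalized counts with vehicle and 3.48 to 4.19 with tamoxifen, and its activating value was -1.02 (SE 0.52) with no adjusted p.

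Of the MYC network partners 3 of 12 were tested. MLX, a partner of the MondoA and MAD proteins that lies opposite PSMC3IP, had 415 to 450.2 normalized counts with vehicle and 229.8 to 291 with tamoxifen in the repressive line. It fell there by 0.71 on the log2 scale (SE 0.12, adjusted p = 3.0e-07), and its vehicle level was already higher than in the neutral line (0.38, SE 0.12, adjusted p = 0.0402). MXD3, a MYC antagonist, fell by 0.18 on the log2 scale in the activating line (SE 0.06, adjusted p = 0.0436). Its values of -0.17 in the neutral line (SE 0.06, adjusted p = 0.0792) and -0.12 in the repressive line (SE 0.06, adjusted p = 0.206) did not pass, no difference between lines was called for it, and its row lies opposite PRELID1 over 1148 bases. Of 4 tested nucleotide synthesis genes 0 were called by DESeq2 in any comparison. Before induction, HEATR1 was lower in the activating than in the neutral line (-0.40, SE 0.10, adjusted p = 0.0044), and no other gene of the lists than HEATR1 and MLX was called between vehicle-treated lines.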

How the data were processed

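RNA-seq was made from 18 libraries of RWPE1 cells (6 groups of construct and treatment, 3 biological replicates each). The authors made stranded mRNA libraries (Illumina NovaSeq), processed them with nf-core/rnaseq on GRCh37, and deposited expected counts per gene from Salmon 1.9.0, which are estimated read numbers not scaled for depth or length. The submitters' processing notes also name DESeq2 1.28.0. Here the deposited expected counts, of which 1.10% were not whole, were rounded. The 5816 of 57773 genes that reached 10 counts in 3 or more libraries entered 1 DESeq2 model (1.42.0, R 4.3.3) with a mean per group. Size factors were medians of ratios, and Wald tests were followed by independent filtering, which leaves some low-count genes without an adjusted p. Normalized counts are counts divided by size factors. The dispersion trend was parametric, except in the alternative with no filter on low counts, where DESeq2 used a local fit. The model was tested on simulated data.

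The 3 tamoxifen effects, 3 differences between them and 3 vehicle comparisons were tested with no covariate. P-values measure the spread between biological replicates as labelled. No 2 replicates agreed within sampling noise (chi-square per degree of freedom 2.84 to 3.79 in 18 pairs). Gene positions and exon overlaps came from GENCODE v44 lifted to GRCh37, which matched 96.1% of the table's genes by identifier. The members, lists and opposite-row look-up were chosen with earlier results of these data known. Values per library are given for MYC, for members called in any comparison, for the most counted member of each role, and for the largest change among members with a mean of at least 50. Alternatives were edgeR 4.0.16, total-count scaling, no filter on low counts, no independent filtering, a replicate block, only genes without an opposite overlap, and leaving out each library.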

Additional observations from a re-analysis of the deposited data

Results flagged for a closer look

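Among the members, the rows opposite to them and the genes of the wider lists, 3 differences between lines passed the test of the difference itself (DESeq2, interaction of construct and tamoxifen), and none was of a member. Over all tested genes, 3.85% were called in the repressive minus neutral, 0.619% in the activating minus neutral and 4.25% in the activating minus repressive difference. MLX, a partner in the MYC network whose row lies opposite PSMC3IP, had a tamoxifen effect lower in the repressive than in the neutral line by -0.88 on the log2 scale (SE 0.17, adjusted p = 1.9e-05), with means of 431.5 ± 17.7 and 263 ± 31.0 normalized counts (SD, n = 3) with vehicle and tamoxifen in the repressive line and of 333 ± 27.4 and 375 ± 15.7 in the neutral line. Its effect in the activating line exceeded that in the repressive line by 0.72 (SE 0.17, adjusted p = 9.8e-04), with means of 349 ± 61.0 and 352 ± 14.8 in the activating line. RP11-603J24.17, the lncRNA row opposite PA2G4, had an activating minus repressive difference of 0.52 (SE 0.15, adjusted p = 0.0103), with means of 444 ± 50.4 and 416 ± 7.61 with vehicle and tamoxifen in the activating line and of 450.5 ± 17.4 and 293 ± 2.93 in the repressive line. Without replicate 2 of the activating vehicle group that difference was 0.44 (adjusted p = 0.0518). All 3 differences rest on the same repressive libraries, and their cause was not tested.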

How the results depend on the processing

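Low counts and strand both limit these results. Of the 28 tested members, 21, 6 and 7 had an adjusted p in the repressive, neutral and activating tamoxifen comparisons. Which strand the counting used was not tested. In the neutral line the number of members called was 0, and 1 with a replicate block (TCP1, adjusted p = 0.0385). In the repressive line it was 3, and 1 among genes without an opposite overlap, where TCP1 is not in the fit. In the activating line it was 2, and 1 with edgeR, with no filter on low counts, with no independent filtering and with the replicate block, each time through the loss of NOP16 (adjusted p = 0.190, 0.0589, 0.130 and 0.0775), and 0 among genes without an opposite overlap, where neither gene is in the fit. In the activating minus repressive difference it was 0, and 1 with total-count scaling (NOP16, 0.47, adjusted p = 0.0142) and with no independent filtering (NOP56, adjusted p = 0.0443). Leaving out 1 library at a time gave 0 to 1 in the neutral, 1 to 4 in the repressive and 1 to 2 in the activating line, 0 to 0, 0 to 1 and 0 to 1 in the 3 differences, and 0 to 0, 0 to 1 and 0 to 1 in the vehicle comparisons. Without replicate 1 of the activating vehicle group TCP1 was lower in the activating than in the neutral (-0.48, adjusted p = 0.0287) and the repressive line (-0.75, adjusted p = 1.1e-04) with vehicle, and without replicate 2 of the repressive vehicle group NOP16 was called in the activating minus repressive difference (0.41, adjusted p = 0.0435). BOP1 was called in the repressive line in 6 of the 18 fits without 1 library (lowest adjusted p = 0.0166) and with no filter on low counts. PPAN had an adjusted p of 0.0826 among genes without an opposite overlap and received none without replicate 2 or 3 of the repressive tamoxifen or replicate 2 of the neutral vehicle group. NOP16 stayed called without replicate 1 of the neutral vehicle group or replicate 2 or 3 of the repressive vehicle group. No called value changed direction. Replicate numbers did not pair the libraries: deviations of same-numbered vehicle and tamoxifen libraries correlated at -0.259 to 0.106 over 1000 genes. The causes of these changes were not tested.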
